A study of Bos taurus with 5 samples.

Results

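The 2 purebred libraries of a 5-library cattle series, labelled N and H, were set against each other to describe how blood leukocytes of the parental breeds differ. They were taken by the population names in the deposited pairwise table, and 14138 of the 31898 assembled loci, 44.3 percent, had a mean of at least 1 FPKM in the 2 libraries and were kept. FPKM is a fragment count divided by the length of the transcript and by the size of the library. It is meant to be compared between loci of different length, but not reliably at or below the fragment size, here 130 bp. Both libraries came from leukocytes of peripheral blood of purebred Bos taurus, one labelled purebred N and the other purebred H. The labels give these letters without spelling them out. The series' design text names Holstein and Iran native cattle as the parents of the crosses and uses the same letters for a native and a Holstein sire. No treatment, age or allele is given in the labels used here, nor the number of animals behind a library. The crossbred libraries serve only as side values. The 75C cattle were 75 percent Holstein and 25 percent native. The other crosses were 50 percent of each breed, 50CSH by a Holstein sire and 50CSN by a native sire.

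Holstein cattle are a dairy breed under long selection for milk yield. Blood leukocytes are a mixture of lymphocytes, monocytes and granulocytes, and their transcripts come from genes every cell uses and from immune genes that belong to particular cell types. Several families of immune genes lie in clusters of similar copies whose number and alleles vary between animals. In cattle the major histocompatibility complex, which presents antigens to T cells, lies on chromosome 23. Chromosome 10 carries the T cell receptor genes for the alpha and delta chains, chromosome 4 those for beta and gamma, chromosome 21 the immunoglobulin heavy chain, and chromosomes 11 and 17 the light chains. The leukocyte receptor complex is on chromosome 18 and the natural killer complex on chromosome 5.

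With 1 library on each side, no difference here has a replicate check and no test was made. Values are compared on the log2(FPKM + 1) scale, which understates the change of low loci. In a bulk sample, fewer cells of a type and less RNA per cell cannot be told apart. Of the 31460 Ensembl transcript IDs in the table, 0 could be matched to a gene symbol through the reference table used here, so loci are given by Ensembl ID and by position as deposited, and the labelled cell type could not be checked against marker genes. No source used here names the genome build, so exon, intron and UTR positions are not given. Summed FPKM was 735252 in N and 733855 in H. Read totals per library were not used here. Among 2603 low loci with 1 transcript, the most frequent ratio of values put the depth of N at about 1.19 times that of H, so 1 read is worth more FPKM in H. Mitochondrial transcripts held 6.41 percent of the summed FPKM in N and 5.67 percent in H. Loci with a span under 300 nt and without an Ensembl ID held 15.5 percent in N and 14.2 percent in H.

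Most loci stood at nearly the same level in both purebreds. The median difference of H from N was -0.02 on the log2 scale, with quartiles at -0.18 and 0.13, and 12774 loci, 90.4 percent, lay within 1.5-fold. Across the 14138 loci the Pearson correlation of log2(FPKM + 1) was 0.951, a description over loci that share the same 2 libraries. At least 2-fold higher in H were 221 loci (1.56 percent), and at least 2-fold lower were 304 loci (2.15 percent). At least 4-fold higher were 47 (0.332 percent) and at least 4-fold lower were 108 (0.764 percent). Most of the surplus of lower loci lay among values listed at exactly 0, which can be a failed estimate. Such loci numbered 92 in H and 28 in N, and every one of them is past 2-fold because it was kept only through the other library. Above 0 in both libraries were 14018 loci, of which 193 (1.38 percent) were higher and 212 (1.51 percent) lower, and at 4-fold 26 were higher and 38 lower.

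**Figure D1:**
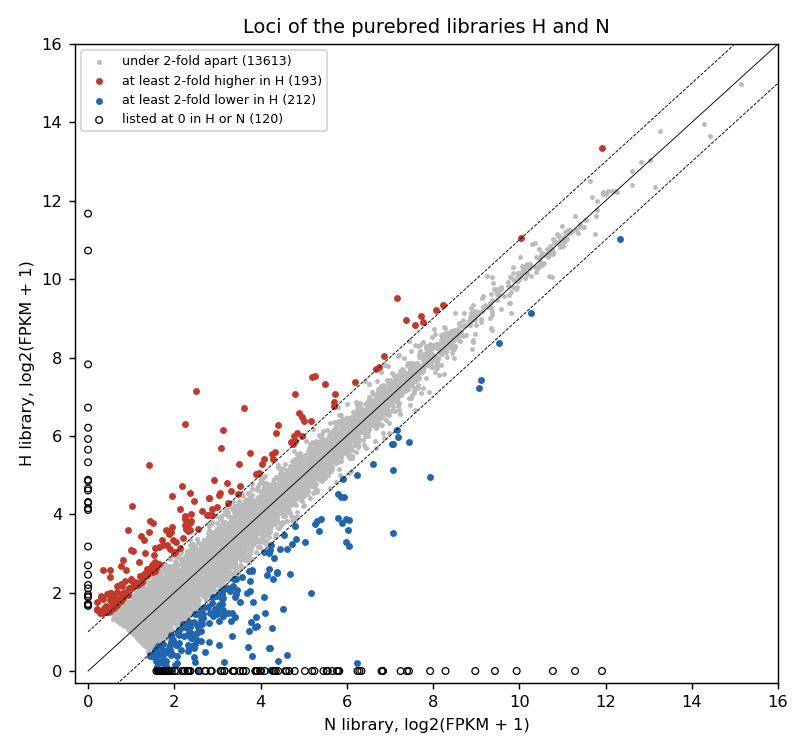
Level of each kept locus in the N library (horizontal axis) and in the H library (vertical axis), both as log2(FPKM + 1). Each point is a locus, the solid line marks equal levels and the dashed lines 2-fold. Most points, 13613, lie between the dashed lines, and open circles on the axes are the 120 loci listed at 0 in H or N.

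Among annotated loci above 0 in both libraries, 106 of 11649 were at least 2-fold higher in H and 111 were lower. The locus farthest above N was that of ENSBTAT00000044918 on chromosome 18, spanning 46718166 to 46737669, with 9 transcripts. It was at 1.65 in N and 37.2 FPKM in H, a difference of 3.85 on the log2 scale. The 75C library also stood well above N there, at 16.2 FPKM, while 50CSN and 50CSH stayed near the level of N at 2.22 and 1.92 FPKM. On chromosome 11, spanning 51004921 to 51007327, ENSBTAT00000045142 was at 11.3 in N and 103 FPKM in H (log2 difference 3.09). All 3 crossbreds lay between the purebreds at that locus, at 35.5 in 75C, 79.1 in 50CSN and 33.6 FPKM in 50CSH. ENSBTAT00000010615 on chromosome 4, in a span 109624151 to 109825320 that 10 loci share, was at 7.69 in N and 69.8 FPKM in H (log2 difference 3.03). There too the crossbreds lay between, from 10.3 in 75C to 34.5 FPKM in 50CSH. ENSBTAT00000037671 on chromosome 5, spanning 117480208 to 117486671, was at 7.42 in N, 51.1 in H and 56.9 FPKM in 75C (log2 difference of H from N 2.63).

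The next 8 loci by rank had log2 differences from 2.196 to 2.40. The locus of ENSBTAT00000010182 on unplaced sequence Un.004.147 was at 1.70 in N and 13.3 FPKM in H. ENSBTAT00000059474 on chromosome 11, in a span 108061858 to 108065538 that 3 loci share, was at 35.6 in N, 179 FPKM in H, with a listed 0 in 50CSH. In the same span ENSBTAT00000059922 went the other way, at 43.0 FPKM in N and listed at 0 in H. ENSBTAT00000042796 on chromosome 19, spanning 44675645 to 44743660, separated the libraries into a high and a low group. It stood at 12.7 in H and 14.7 in 75C, against 1.82 in N, 0.330 in 50CSN and 0.123 FPKM in 50CSH. Its span holds 5 loci. ENSBTAT00000059715, a locus of 133 nt on chromosome 2, was at 26.6 in N and 132 FPKM in H, and 75C was above both at 188 FPKM. ENSBTAT00000014157 on unplaced sequence Un.004.692 was at 37.5 in N and 183 FPKM in H, with the crossbreds between 93.9 and 107 FPKM. On chromosome 5, ENSBTAT00000010617 was at 0.280 in N and 4.98 in H, and ENSBTAT00000021058 at 1.34 in N and 9.87 FPKM in H. ENSBTAT00000017538 on chromosome X, spanning 60276583 to 60303743, was at 4.12 in N, 22.5 in H and 36.6 FPKM in 75C.

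Farthest below N was ENSBTAT00000054099 on chromosome 9, in a span 40676200 to 40949439 shared by 8 loci. It was at 74.8 in N and 0.161 FPKM in H, a log2 difference of -6.03. The crossbreds were all far above H, at 21.9 in 75C, 56.5 in 50CSN and 151 FPKM in 50CSH. ENSBTAT00000045894 on unplaced sequence Un.004.27 was at 17.6 in N and 0.0152 FPKM in H (log2 difference -4.20). Of the crossbreds, 50CSN was near N there at 13.1 FPKM, 75C was at 0.0164 FPKM and 50CSH was listed at 0. ENSBTAT00000037203, a locus of 471 nt on chromosome 14 from 64829665 to 64830135, was at 20.3 in N and 0.187 FPKM in H (log2 difference -4.17). ENSBTAT00000016618 on chromosome 7, spanning 52366628 to 52393042, was at 17.6 in N and 0.496 FPKM in H (log2 difference -3.63), and the 3 crossbreds lay between at 2.24 to 9.70 FPKM.

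At 3 of the lower loci the crossbreds split between the purebred levels in different ways. ENSBTAT00000044482 on chromosome 2, spanning 97468246 to 97470058, was at 133 in N and 180 in 50CSN, against 10.5 in H, 12.8 in 75C and 0.819 FPKM in 50CSH. The locus of ENSBTAT00000012769 on chromosome 9, spanning 91239245 to 91344892, was at 12.9 in N and 16.1 in 75C, and at 0.297 in H, 0.493 in 50CSN and 0.443 FPKM in 50CSH. ENSBTAT00000051513 on chromosome 21, spanning 45764779 to 45773401, also had 75C at the level of N, with 18.2 in N and 19.8 in 75C against 1.15 in H, 1.28 in 50CSN and 3.94 FPKM in 50CSH. The remaining 5 of the 12 lowest had log2 differences from -3.09 to -2.78. ENSBTAT00000027844 on unplaced sequence Un.004.137 was at 12.1 in N and 0.539 FPKM in H, and no crossbred exceeded 0.513 FPKM. Both ENSBTAT00000039232 (22.1 in N, 2.01 in H) and ENSBTAT00000054266 (7.93 in N, 0.180 FPKM in H) lie in a span of chromosome 7 from 42115902 to 42827995 that 36 loci share. ENSBTAT00000062472 on chromosome 24, a locus of 143 nt, was at 243 in N and 29.7 FPKM in H. ENSBTAT00000004163 on chromosome 8 was at 14.1 in N and 1.20 FPKM in H.

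**Figure D2:**
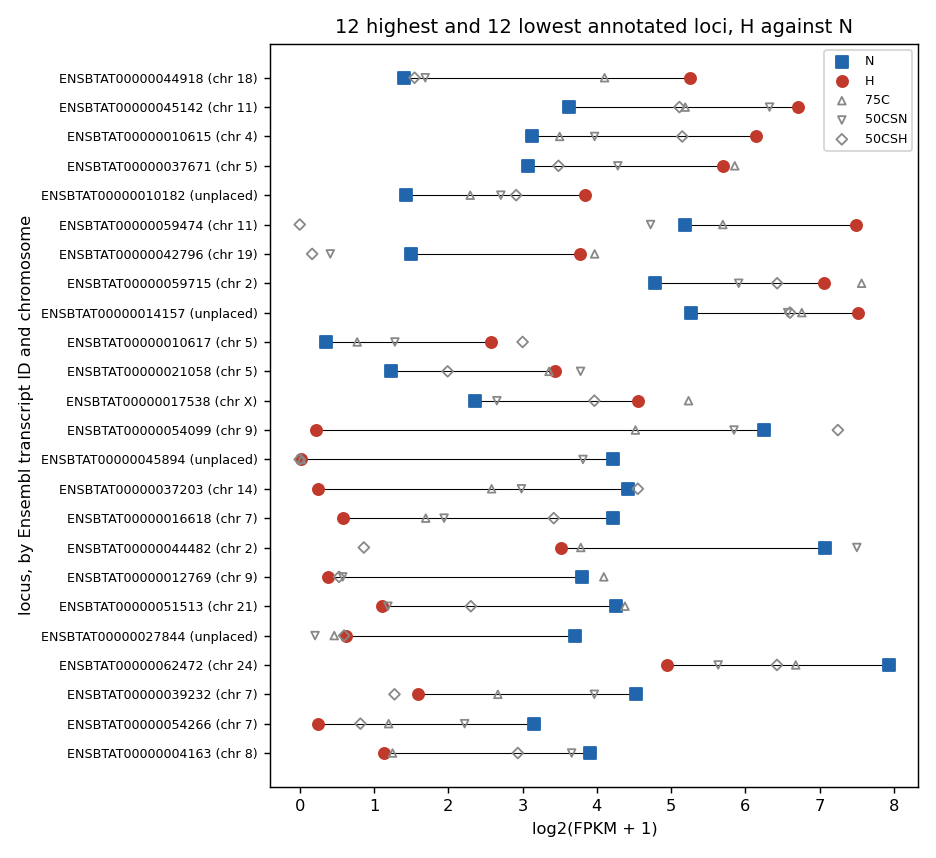
Levels of the 12 highest and 12 lowest annotated loci above 0 in H and N, as log2(FPKM + 1) on the horizontal axis, with a row for each locus. Blue squares are N, red circles are H and open grey marks are the crossbreds, and a line joins N to H. The upper 12 rows have H to the right of N, up to 3.85 log2 units for the chromosome 18 locus, and the lower 12 have H to the left, down to -6.03 for the chromosome 9 locus.

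Loci lay close to the 2-fold line on either side. Just inside it were ENSBTAT00000017684 on chromosome 4, at 3.37 in N and 7.76 in H (log2 difference 1.00), and ENSBTAT00000008991 on chromosome 6, at 59.7 in N and 29.0 FPKM in H (-1.01). Just outside were ENSBTAT00000007811 on chromosome 10, at 12.8 in N and 26.5 in H (0.99), and the locus of ENSBTAT00000020133 on chromosome 19, at 67.8 in N and 33.4 FPKM in H (-0.999).

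Of the 865 loci averaging 100 FPKM or more, 19 were at least 2-fold higher in H and 17 lower, and of the 854 above 0 in both libraries 16 were higher and 9 lower. Among those above 0 in both, the highest by difference was a locus of chromosome 20 without an Ensembl ID, 127 nt long from 33732552 to 33732678, at 143 in N and 731 FPKM in H (log2 difference 2.35). It was followed by ENSBTAT00000059474 and ENSBTAT00000014157, described above. The locus of ENSBTAT00000015911 on chromosome 19, spanning 27060170 to 27109667, was at 44.3 in N and 159 FPKM in H (log2 difference 1.82), and H was also above every crossbred, which lay between 12.04 and 38.4 FPKM. A locus of chromosome 18 without an Ensembl ID, within the span 61508086 to 61564471, was at 3865 in N and 10473 FPKM in H, and was listed at 0 in 50CSH. One of 135 nt on chromosome 15, spanning 64677172 to 64677306, was at 164 in N, 497 in H and 536 FPKM in 75C (log2 difference of H from N 1.60). Lower in H were ENSBTAT00000062472, described above, and 2 loci of chromosome 23 given with that chromosome. ENSBTAT00000005660 on chromosome 10, spanning 88959748 to 88965461, was at 172 in N and 56.4 in H (log2 difference -1.59), and lower still in the crossbreds, down to 5.75 FPKM in 50CSH. A locus of chromosome 28 without an Ensembl ID, within the span 24718276 to 24739642, was at 5143 in N and 2096 FPKM in H (-1.29). ENSBTAT00000062760, 127 nt on chromosome 25 from 2004849 to 2004975, was at 144 in N and 61.7 FPKM in H, with a listed 0 in 75C and 50CSH.

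The 6 most abundant loci of each library were largely shared. The leading one in both libraries was a locus of 17 transcripts on the mitochondrial chromosome, which encodes subunits of the respiratory chain and the RNAs to translate them, at 36230.3 in N and 32043 FPKM in H. All 4 kept mitochondrial loci stood slightly lower in H, with log2 differences from -0.20 to -0.13. Next in N by FPKM were short loci without an Ensembl ID. They are shorter than the fragment size of 130 bp, so their rank may not reflect their abundance. One of 128 nt on chromosome 18, spanning 61195122 to 61195249, was at 21904 in N and 12935 FPKM in H (log2 difference -0.76). One of 116 nt on unplaced sequence Un.004.433 was at 20012.5 in N and 15990.1 FPKM in H. One of 113 nt on chromosome 3, spanning 104213405 to 104213517, was at 9763 in N and 14064 FPKM in H (0.53). The most abundant annotated locus outside the mitochondria, ENSBTAT00000024376 on chromosome 10 from 16598789 to 16600945, was at 8343 in N and 8395 FPKM in H, a log2 difference of 0.01.

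Loci listed at 0 in 1 purebred included some of the highest values of the other. Of these 120 loci, 118 had 1 transcript. ENSBTAT00000060361 on chromosome 5, within the span 48015303 to 48065411, was at 3865 FPKM in N and listed at 0 in H and in all 3 crossbreds. Its value in N is the same to every deposited digit as that of the chromosome 18 locus from 61508086 given above. These were the only 2 of the 880 loci at 100 FPKM or more in N to share an exact value. ENSBTAT00000059637 on chromosome 3 (2509 FPKM), ENSBTAT00000062280 on chromosome 8 (1755 FPKM) and ENSBTAT00000062109 on chromosome 5 (980.4 FPKM) were likewise above 0 in N alone of the 5 libraries. Their spans are shared by 4, 2 and 2 loci, in that order. ENSBTAT00000059182 on chromosome 10, a locus of 116 nt and so shorter than the fragment size of 130 bp, was at 691 in N and 385 FPKM in 50CSN. It was listed at 0 in the other 3 libraries. In the other direction, ENSBTAT00000013413 on chromosome 23, within the span 27808462 to 27884733, was listed at 0 in N and at 3261 FPKM in H, and all crossbreds had it, from 690.2 to 1459 FPKM. A locus of 123 nt on chromosome 1, spanning 109634246 to 109634368, was listed at 0 in N and at 1695 FPKM in H, with crossbreds from 264 to 881 FPKM. ENSBTAT00000059116 on chromosome 22 was at 72.9 FPKM in H, with a listed 0 in the other 4 libraries. In total 29 of the 92 loci listed at 0 in H were also listed at 0 in the 3 crossbreds, and 7 of the 28 listed at 0 in N.

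Over the 14018 loci above 0 in both libraries, where no locus is apart by construction, 405 (2.89 percent) were at least 2-fold apart. Differences gathered in particular kinds of these loci. Those without an Ensembl ID made up 16.9 percent of them and 46.4 percent of those apart. Of the 2369 such loci 87 were higher in H and 101 lower. Loci with 1 transcript made up 27.4 percent and 57.3 percent of those apart, with 103 of 3843 higher and 129 lower. Of loci with 5 or more transcripts, 24 of 3813 were higher and 23 lower. By length of the span, 19.3 percent of the 207 loci under 300 nt were at least 2-fold apart. Between 5000 and 20000 nt it was 1.84 percent of 3421 loci. Loci that share a span were all given its full length, which can exceed their own. The share also differed with the level of a locus. Below a mean of 2 FPKM, 4.54 percent of loci were apart, between 10 and 50 FPKM 1.47 percent, and at 100 FPKM or more 2.93 percent. The quartiles of the log2 difference under 300 nt were -0.58 and 0.28, wider than over all kept loci. Whether length of the span, level or the missing annotation set these shares was not tested.

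**Figure D3:**
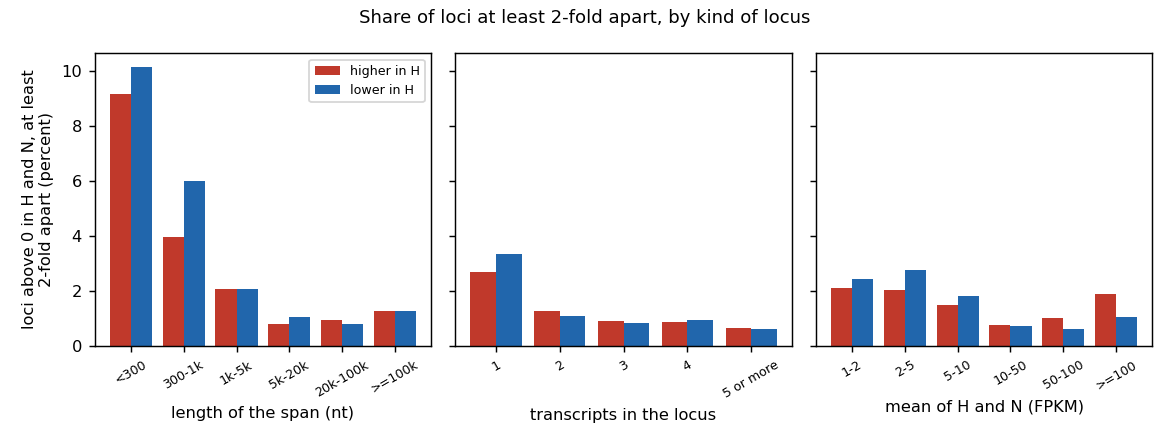
Percent of loci above 0 in both libraries that were at least 2-fold higher (red) or lower (blue) in H than in N, by length of the span, by number of transcripts and by mean level of the 2 libraries. Bars stand for all such loci of a kind, with no error since each side is 1 library. Spans under 300 nt have the tallest bars, at 9.18 percent higher and 10.1 percent lower.

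By position, and counted per locus, chromosome 23 had the largest share of loci apart among the numbered chromosomes and X. Of its 468 kept loci 11 (2.35 percent) were higher in H and 19 (4.06 percent) lower, against 1.56 and 2.15 percent over all loci and 3.71 percent in either direction. The median difference over the chromosome was -0.01, beside -0.02 over all loci. Over its loci above 0 in both libraries 10 were higher and 11 lower, 4.58 percent of 459, against 2.89 percent over all such loci. With loci that share a span summed, 5 were higher and 8 lower on chromosome 23, and 167 and 233 of 11849 over all. Chromosome 5 then had 18 and 13, and chromosome 10 had 12 and 14. The share of chromosome 23 on that count is not given here. Of the 30 loci apart, 23 lay between 27 and 32 Mb, a range whose number of kept loci is not given here. The windows from 28 to 29 Mb and from 31 to 32 Mb held 10 and 9 loci apart, of 43 kept in each. In the span from 28472237 to 28685278, which 15 loci share, 5 loci were lower and 1 was higher. ENSBTAT00000024888 was at 243 in N and 292 FPKM in 50CSN and listed at 0 in H, 75C and 50CSH. The locus of ENSBTAT00000011795 was at 537 in N and 149 FPKM in H (log2 difference -1.85), with the crossbreds between at 325 to 442 FPKM. The higher one, with 6 transcripts under ENSBTAT00000052125, was at 4.51 in N and 19.3 FPKM in both H and 50CSH (log2 difference 1.88). A locus of 1 transcript under the same ID went the other way, at 7.96 FPKM in N and listed at 0 in all 4 others. Next along the chromosome, within the span 28965906 to 28998467 and just past it, 5 loci stood lower in H by 2-fold or more. The more abundant of these were ENSBTAT00000034472, at 95.8 in N and 37.6 in H, and ENSBTAT00000035669, spanning 29024535 to 29025005, at 553 in N and 172 FPKM in H. The files do not say which of these loci belong to the major histocompatibility complex.

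A second group of chromosome 23 lay within the span 31718068 to 31995131, which 40 loci share. There 4 loci were higher and 2 lower. ENSBTAT00000015499 marked both a locus at 30.4 in N and 63.3 in H and one at 1.60 in N and 5.09 FPKM in H. ENSBTAT00000053239 was at 7.15 in N and 2.21 in H, and ENSBTAT00000045043 was at 3.94 FPKM in N and listed at 0 in H.

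On chromosome 10, 13 of 628 loci (2.07 percent) were higher in H and 20 (3.18 percent) lower. The shares over all loci were 1.56 and 2.15 percent. Of its 620 loci above 0 in both libraries 12 were higher and 13 lower, 4.03 percent, against 2.89 percent over all such loci. At a mean of at least 5 FPKM the counts were 7 and 8, beside 117 and 141 of 9609 over all loci. Of the 2060 windows of 1 Mb with a kept locus, those from 23 to 24 Mb and from 24 to 25 Mb were among the 7 with 5 or more loci apart. In the first, 2 of 19 loci were higher and 4 lower, and in the second 2 of 18 were higher and 3 lower. The locus of ENSBTAT00000053268, spanning 23981041 to 24004113, was at 23.4 in N and 23.8 in 50CSH, at 6.45 in 75C and 5.45 FPKM in 50CSN, and listed at 0 in H. ENSBTAT00000002921, spanning 23501758 to 23502470, was at 3.75 in N and 13.7 FPKM in H, and higher still in the crossbreds at 17.7 to 30.9 FPKM. A locus without an Ensembl ID from 24480880 to 24481969 was at 1.03 in N and 17.6 FPKM in H, and at most 1.77 FPKM in the crossbreds. Whether these are T cell receptor segments is not stated in the files.

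Chromosome 5 had 18 of 761 loci (2.37 percent) higher and 19 (2.50 percent) lower, against 1.56 and 2.15 percent over all loci. Of its 756 loci above 0 in both libraries 18 were higher and 14 lower, 4.23 percent, against 2.89 percent over all such loci. With shared spans summed the counts were 18 and 13, beside 167 and 233 of 11849 over all. Neighbouring loci near 110 Mb were higher together. The locus of ENSBTAT00000055884, spanning 109869549 to 109920886, was at 0.459 in N and 2.43 FPKM in H. The locus of ENSBTAT00000028193, spanning 110025794 to 110052844, was at 4.21 in N and 15.0 FPKM in H. ENSBTAT00000021058, given above, begins just past it. In all 3 every crossbred was also above N, with 50CSH the lowest of them. The lowest locus of chromosome 5 above 0 in both, that of ENSBTAT00000018155 from 114694562 to 114963596, was at 12.4 in N and 3.12 FPKM in H (log2 difference -1.71), and 75C was the highest at 27.7 FPKM.

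On chromosome 4, 7 of 441 loci (1.59 percent) were higher and 11 (2.49 percent) lower. These are near the shares over all loci, 1.56 and 2.15 percent. Of its 437 loci above 0 in both, 6 were higher and 8 lower, 3.20 percent, against 2.89 percent over all such loci. At a mean of at least 5 FPKM the counts were 5 and 4, beside 117 and 141 of 9609 over all loci. With shared spans summed they were 4 and 8, beside 167 and 233 of 11849. Of the 18 loci apart, 3 higher and 3 lower lay between 109 and 110 Mb, where 29 loci were kept. Beside ENSBTAT00000010615 given above, ENSBTAT00000052119, in a span that 27 loci share, was at 2.74 in N and 7.61 FPKM in H. ENSBTAT00000056486, spanning 109350865 to 109351295, was at 5.30 in N and 1.57 FPKM in H. The lowest above 0 in both was a locus of 300 nt without an Ensembl ID, spanning 91818454 to 91818753, at 8.88 in N and 1.44 FPKM in H (log2 difference -2.02).

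On the chromosomes with the other immune clusters the share of loci apart was 1.42 percent (17), 3.79 percent (21), 2.74 percent (11) and 2.59 percent (18), near or below the 3.71 percent over all loci. Chromosome 17 had 3 of 424 loci higher (0.708 percent) and 3 lower. Its most abundant locus apart was that of ENSBTAT00000031209, within the span 74048337 to 74454513, at 1044 in N and 2126 FPKM in H (log2 difference 1.03), with crossbreds from 1079 to 1734 FPKM. The lowest above 0 in both was ENSBTAT00000012952, spanning 31205689 to 31205946, at 59.7 in N and 20.6 FPKM in H, with crossbreds from 59.99 to 93.2 FPKM. Chromosome 21 had 5 of 317 loci higher (1.58 percent) and 7 lower (2.21 percent). Beside ENSBTAT00000051513, lower in H, lies ENSBTAT00000040800, spanning 45778053 to 45778211, which was listed at 0 in N and the crossbreds and at 16.2 FPKM in H. The highest locus of chromosome 21 above 0 in both, 299 nt without an Ensembl ID from 49894819 to 49895117, was at 2.85 in N, 21.3 in H and 34.9 FPKM in 50CSN. Chromosome 11 had 10 of 656 loci higher (1.52 percent) and 8 lower (1.22 percent), with ENSBTAT00000045142 as the highest. The lowest above 0 in both, 229 nt from 99053651 to 99053879, was at 12.3 in N and 1.05 FPKM in H. Chromosome 18 had 6 of 771 loci higher (0.778 percent) and 14 lower (1.82 percent), and over loci above 0 in both 5 and 9. Between 61 and 62 Mb 1 of its 22 loci was higher and 4 lower. None of the 4 has an Ensembl ID, and 3 are neighbours. These 3, spanning 61424815 to 61456325, were at 2.32, 2.21 and 4.02 in N and at 0, 0 and 0.579 FPKM in H.

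On chromosome X 1.32 percent of the kept loci were apart, against 3.71 percent over all loci, where 1.56 percent were higher. Of its 303 kept loci 4 were higher in H and 0 lower. Beside ENSBTAT00000017538, these were ENSBTAT00000059485, at 20.3 in N and 77.1 in H, ENSBTAT00000004135, at 6.37 in N and 14.8 in H, and a locus without an Ensembl ID within the span of the latter, at 0.514 in N and 2.04 FPKM in H. With a pseudocount of 0.1 in place of 1, 6 loci of the chromosome were higher and 6 lower, and with no filter on low values 7 and 2. With shared spans summed 2 were higher and 0 lower, and the same counts came with a pseudocount of 5. The median difference over the chromosome was -0.02, the same as over all loci.

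**Figure D4:**
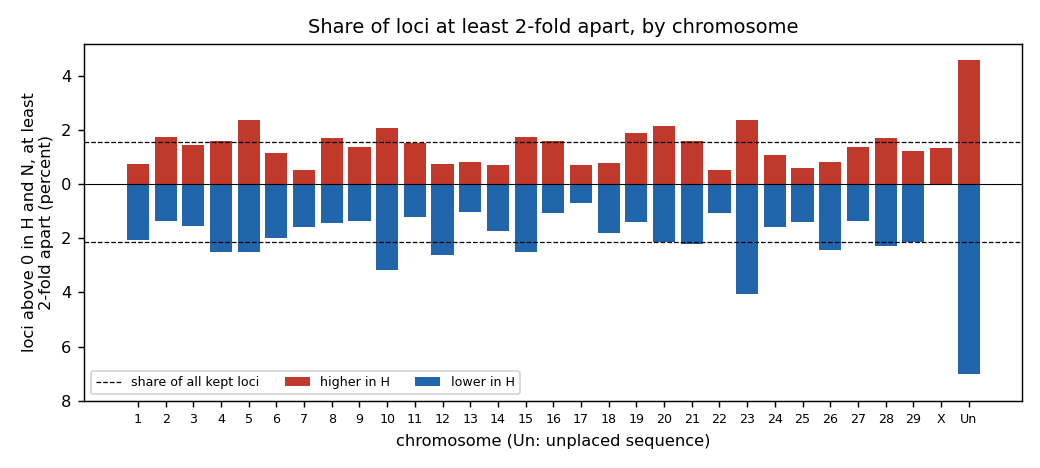
Percent of the kept loci of each chromosome at least 2-fold higher in H (red, upward) or lower (blue, downward). Dashed lines mark the shares over all kept loci, 1.56 percent higher and 2.15 percent lower, and Un stands for all unplaced sequence. The axis title names loci above 0 in H and N, but all kept loci are drawn, with those listed at 0 in 1 library included. Unplaced sequence has the tallest bars, and X has no downward bar.

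Unplaced genome sequence, pieces that the assembly does not assign to a chromosome, held 914 kept loci on 524 sequences. Of these 42 (4.60 percent) were higher in H and 64 (7.002 percent) lower, against 1.56 and 2.15 percent over all loci. Together they made up 20.2 percent of all loci apart. Over unplaced loci above 0 in both libraries 37 were higher and 48 lower, 9.52 percent of 893, against 2.89 percent of all 14018 loci. At a mean of at least 5 FPKM the directions were nearly even, 24 higher and 22 lower, beside 117 and 141 of 9609 over all loci. The number of unplaced loci kept at that filter is not given here. The 16 listed at 0 in H included 9 that were listed at 0 in the crossbreds too, while none of the 5 listed at 0 in N was. Several pieces held more than 1 such locus. On Un.004.137, 4 of 15 loci were lower in H and 0 higher. Of these, ENSBTAT00000025313 was at 9.42 in N and listed at 0 in the other 4 libraries, and ENSBTAT00000025311 was at 20.7 in N and 7.71 FPKM in H. On Un.004.309, 3 neighbouring loci were listed at 0 in N and in 50CSN, and stood at 28.5, 23.4 and 5.48 FPKM in H. The same 3 were at 124, 106 and 19.1 in 75C and at 29.7, 30.7 and 5.76 FPKM in 50CSH. On Un.004.43, 4 of 8 loci were higher and 2 lower. Among them a locus without an Ensembl ID within the span 34920 to 125134 was listed at 0 in N and at 226 FPKM in H.

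Differences were more frequent for single transcripts than for loci. Of 27260 transcripts averaging 1 FPKM or more, 1216 (4.46 percent) were at least 2-fold higher in H and 1306 (4.79 percent) lower. Of these 2522, 1964 belonged to loci whose sum was not 2-fold apart. The shares of transcripts within a locus were therefore compared, a measure that does not depend on the scaling between libraries. In 7335 loci with several transcripts and at least 5 FPKM in both libraries, the largest change of a share had a median of 7.01 percentage points. It was at least 20 points in 784 loci (10.7 percent) and at least 50 points in 63 (0.859 percent). Of these 63, 54 had sums within 1.5-fold. The transcript with the highest value was a different one in H and N in 866 loci, 11.8 percent.

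The largest change was at a locus of chromosome 25 from 39513117 to 39520034 with 2 transcripts. The one under ENSBTAT00000030985 was at 61.7 in N and 0.00770 in H, and the one under ENSBTAT00000055646 was at 0.0671 in N and 68.6 FPKM in H. The locus as a whole was at 61.8 in N and 68.6 FPKM in H. In the crossbreds the share of ENSBTAT00000055646 was 2.11 percent in 50CSN, 50.0 percent in 50CSH and 73.2 percent in 75C, against 0.109 percent in N and 100.0 percent in H. At a locus of chromosome 3, spanning 65228599 to 65229815, ENSBTAT00000006704 held 99.97 percent in N and 0.311 percent in H, and ENSBTAT00000044005 held the rest. There the crossbreds sorted to one side or the other, 50CSN with N and the other 2 with H. At a locus of chromosome 11, spanning 89715840 to 89804990, ENSBTAT00000003521 held 99.6 percent in N and 1.44 percent in H, and 75C (91.9 percent) and 50CSH (99.4 percent) were near N while 50CSN (2.03 percent) was near H.

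Other loci with shares more than 90 points apart showed further arrangements among the crossbreds. A chromosome 25 locus without an Ensembl ID, spanning 28797688 to 28818143, had 87.4 percent in one transcript in N and 99.97 percent in another in H. The latter held 22.9 percent in 75C but 0.204 percent in 50CSH and 0.451 percent in 50CSN. At ENSBTAT00000006085 on chromosome 15, spanning 76916681 to 76925677, the transcript with 90.6 percent in N was at or near 0 in the other 4 libraries. At ENSBTAT00000011795 on chromosome 23, the locus given above as lower in H, 94.1 percent of the H value came from the transcript under ENSBTAT00000031168, which was listed at 0 in the other 4 libraries. At ENSBTAT00000056258 on chromosome 4, spanning 109353081 to 109355531, a transcript held 97.9 percent in N and 4.49 percent in H, and 47.8 to 71.3 percent in the crossbreds. At ENSBTAT00000001403 on chromosome 5, spanning 120787555 to 120823865, a transcript held 93.4 percent in N and 0.763 percent in H. It held 50.0 percent in 50CSN, 16.0 percent in 50CSH and 3.37 percent in 75C. FPKM values divide reads between similar transcripts by a model, so shares of 2 near-identical transcripts are uncertain. The authors' deposited table calls none of the transcripts of these 8 loci between H and N, with q-values of 0.886 or above for them in that table.

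**Figure D5:**
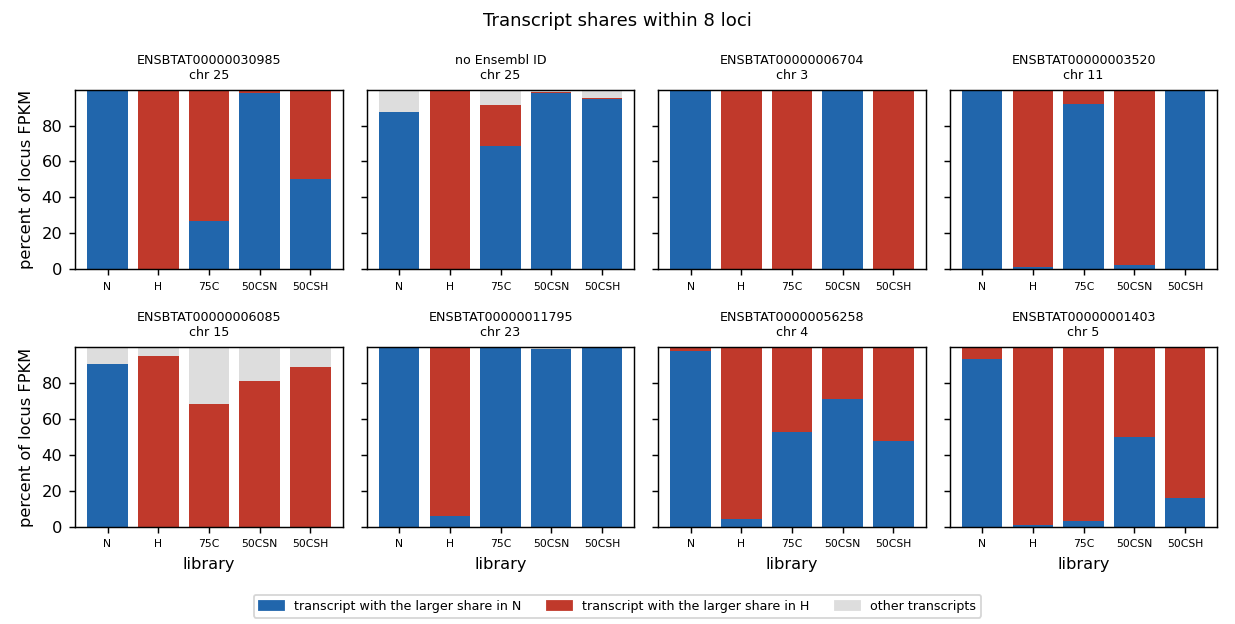
Share of the locus FPKM held by each transcript (vertical axis, percent) in the 5 libraries (horizontal axis), for the 8 loci with the largest change of a share between N and H. Blue is the transcript with the larger share in N, red the one with the larger share in H and grey all others. N is nearly all blue and H nearly all red in each panel, and the crossbreds range from one to the other.

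The authors' deposited table calls 30 of 37698 tested transcripts (0.0796 percent) between H and N at a q-value of 0.05, 10 higher and 20 lower in H. In the authors' deposited table all 30 carry the same p-value, 5e-05, and q-value, 0.043, and no other transcript of that comparison reached this p. Of the 30 calls in the authors' deposited table, 16 were listed at 0 in H and 2 in N. The 12 calls of the authors' deposited table above 0 in both libraries were 8 higher and 4 lower. ENSBTAT00000045142, ENSBTAT00000014157, ENSBTAT00000017538, ENSBTAT00000044482 and ENSBTAT00000035669, with values above, were among these 12. So was a locus of chromosome 7 without an Ensembl ID, spanning 15788602 to 15803571, at 3.73 in N and 78.5 FPKM in H, with crossbreds at 18.6 to 27.3 FPKM. A transcript under ENSBTAT00000022304 on chromosome 20, spanning 22370049 to 22375212, was at 36.2 in N and 116 FPKM in H, while the crossbreds were all near N at 32.9 to 37.1 FPKM. A transcript under ENSBTAT00000015911 on chromosome 19 was at 18.3 in N and 69.7 FPKM in H. ENSBTAT00000020729 on chromosome 27, spanning 46213281 to 46217226, was at 34.8 in N and 83.0 FPKM in H, with crossbreds above both purebreds at 94.2 to 130 FPKM. A transcript on unplaced sequence Un.004.1040 was at 3.37 in N and 16.6 FPKM in H. Lower in H were ENSBTAT00000010762 on chromosome 18, spanning 52856391 to 52863158, at 37.7 in N and 12.6 in H, and ENSBTAT00000013284 on chromosome 7, spanning 49142307 to 49146095, at 54.8 in N and 13.99 FPKM in H. The crossbreds were below both purebreds at these 2 loci, between 0.792 and 3.603 FPKM at the former and between 1.58 and 8.06 FPKM at the latter.

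Of the 30 calls of the authors' deposited table, 12 lay on unplaced sequence, 4 higher and 8 lower in H, and all 8 lower ones were listed at 0 in H. In 6 of these 8 the transcript was listed at 0 in the crossbreds as well, so N alone had a value. Among calls of the authors' deposited table on placed chromosomes, a locus of 161 nt on chromosome 15, spanning 5503058 to 5503218, was at 151 FPKM in N, listed at 0 in H, and at 55.0 to 90.3 FPKM in the crossbreds. ENSBTAT00000057306 on chromosome 8, spanning 74960295 to 74961236, was at 14.9 FPKM in N, listed at 0 in H, and at 4.73 to 9.96 FPKM in the crossbreds. A locus of chromosome 27 without an Ensembl ID, spanning 28551998 to 28552212, was at 26.7 in N, listed at 0 in H and 50CSH, and at 1.44 and 4.03 FPKM in 75C and 50CSN. With 1 library for each population, the p-values of the authors' deposited table compare those libraries, not the breeds.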

How the data were processed

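RNA of blood leukocytes was sequenced in 5 libraries, and the 2 purebred ones, N and H, were compared. The authors deposited FPKM values per assembled transcript, with a p-value and q-value for each pair of libraries. The submitters' processing notes name Cufflinks 2.2.1.0 beside TopHat2 2.0.9. Build, annotation and settings: not given in the sources used here. FPKM was summed per assembled locus, loci averaging 1 FPKM or more over N and H were kept, and differences are H minus N of log2(FPKM + 1) (Python 3.11.15, pandas 2.3.3, numpy 2.4.6). The counting step was checked on a copy of the N library with known changes put in. The copy holds no noise, so this checks the code and not the counts reported. With 1 library a side there is no test, SD or interval, and absolute depth is unknown. No strand-marking step is named, so overlapping and antisense loci cannot be told apart. Named loci are those highest and lowest by difference, by abundance, by transcript share, on chromosomes with immune gene clusters and nearest the 2-fold line, loci listed at 0 in 1 library, and the authors' calls. Windows, neighbouring loci and equal values were picked after values were seen. Members and lists were chosen with earlier results of these data known. The authors' pooled crossbred table was not used. Alternatives changed the pseudocount, filter, scaling, treatment of 0 and unit of summing.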

Additional observations from a re-analysis of the deposited data

How the results depend on the processing

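No paired analysis was possible because each population has 1 library, and for the same reason no library could be left out. The counts of loci depended on the pseudocount and the filter. With a pseudocount of 0.1, 390 loci stood 2-fold or more above N in H and 518 below, and 93 and 196 at 4-fold. A pseudocount of 5 gave 85 and 126, and 26 and 49 at 4-fold. A mean of at least 5 FPKM gave 117 and 141 at 2-fold. Over loci above 0 in both libraries the 4-fold counts were 26 and 38, and with loci of 1 span summed 30 and 68. Counted per transcript, 1216 were higher and 1306 lower. Those transcript counts became 1906 and 2112 with a pseudocount of 0.1, 246 and 301 with one of 5, 1855 and 2038 with no filter, and 303 and 307 at a mean of at least 5 FPKM. Loci with a transcript share at least 20 points apart numbered 143 of 3319 at a locus total of at least 20 FPKM. The 3 changes of scaling, by median of ratios, by quantiles and by a total without mitochondrial and short loci, kept the locus counts within 1.5 times. The share of higher loci among those 2-fold apart ran from 39.5 to 47.7 percent over the settings that count loci. Of the loci named above, 56 were recomputed, those chosen by difference, by abundance, by a value listed at 0 or by chromosome. A pseudocount added to both libraries cannot turn a direction, and no change of scaling turned that of any of these 56. They were the highest and lowest of their groups by difference, so this says little about smaller differences. Differences moved for 27 of the 56 with a pseudocount of 0.1 and for 36 with one of 5. With 1 library a side, differences between animals and between library preparations cannot be told apart from breed.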

Other observations

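Besides the clusters given above, neighbouring loci were apart in the same direction on chromosome 3. From 82465580 to 82777034, 3 adjacent kept loci stood 2-fold or more above N in H. The annotated one, ENSBTAT00000017252, was at 26.2 in N and 62.5 FPKM in H, and its crossbreds were between, from 35.0 to 45.5 FPKM. The locus beside it, without an Ensembl ID, was at 3.78 in N and 12.3 FPKM in H. On chromosome 11, 3 adjacent loci from 103536392 to 103547698 were also higher in H, all at low levels of at most 3.31 FPKM. Over the genome there were 6 runs of at least 3 adjacent kept loci, 4 higher and 2 lower in H, chosen after the values were seen.

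The window of chromosome 19 from 44 to 45 Mb held 6 loci higher and 2 lower in H of 28 kept, and 5 of these were listed at 0 in H or N. On chromosome 16, the window from 2 to 3 Mb held 4 higher and 0 lower of 13. Of 2819 spans shared by several loci, 174 held a locus at least 2-fold apart and 11 held loci of both directions. An exact value shared by 2 loci also occurred in H, where 2 of 872 loci at 100 FPKM or more were listed at 100.158 FPKM.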
